A study of Homo sapiens with 9 samples.

Results

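The genes described here encode the MHC class II antigen presentation system, and their RNA was sequenced from CA46 cells, a human Burkitt lymphoma B cell line. They are the peptide-binding chains HLA-DRA, HLA-DRB1, HLA-DPA1, HLA-DPB1, HLA-DQA1 and HLA-DQB1, the peptide exchange pair HLA-DMA and HLA-DMB, the invariant chain CD74 and the trans-activator CIITA. These 10 genes were taken by symbol from 23282 named features, and all rows of 1 symbol were summed, copies on alternative haplotypes included. Of the 10 symbols, 9 had a row of their own and 8 had a row above 0, and these 8 also passed the filter on low values (1 FPKM or more on average), which 11188 features passed. HLA-DRB1 was listed at 0 in its own rows, and HLA-DQA1 had no row of its own. Their RNA was found in 2 joint rows, HLA-DRB1 with HLA-DRB5 and HLA-DQA1 with HLA-DQA2, which cannot be split and are given beside the 8 members. FPKM is a fragment count divided by gene length and library depth, so it can be compared between genes. It is relative to the library, and the amount of RNA per cell was not measured.

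All 4 RNA-seq groups came from the same line, infected for 48 h, and each group was 1 library. The control cells carried a virus with a non-targeting shRNA (NTC) and were exposed for the last 20 h to PBS or to 10 mM dimethyl succinate (DMS), an ester of succinate that crosses membranes. The knockdown cells carried a virus with Myc shRNA and received PBS or 10 mM DMS in the same way. The study asked whether succinate could act on promoter H3K4 trimethylation and gene expression once MYC was depleted. Its 4 ChIP samples and 1 input sample were not analysed here. Whether infected cells were selected, and how many shRNA sequences were used, is not given in the sources used here.

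MHC class II molecules are pairs of an alpha and a beta chain that show peptides from endocytosed proteins to CD4 T cells, and mature B cells carry them constitutively. CD74 fills the groove during assembly and leads the pair to endosomes, where its last fragment is removed with the help of HLA-DM. Their genes share a promoter module of W/S, X and Y boxes bound by the RFX complex, CREB and NF-Y, and the factor CIITA, which does not bind DNA itself, docks on these proteins and is the limiting switch of the whole family.

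Because the members moved together in the comparisons below, their promoter stretches are shown. The sequences are from RefSeq on GRCh38.p14, whose promoter table matched 8 of the 10 symbols in 9 windows; HLA-DRA and CIITA were not matched. Each line runs 5′ to 3′ on the strand of the gene, from base -140 to base -41 before the start of transcription. Capitals mark the letters AGNNACNGA (a core of the X box) and ATTGG (the core of the Y box, whose reverse complement is CCAAT). Both were searched on both strands, and the X letters were chosen after these windows had been read. A Y match at base -22 of HLA-DMB shared 1 base with an X match at -18.
HLA-DRB1: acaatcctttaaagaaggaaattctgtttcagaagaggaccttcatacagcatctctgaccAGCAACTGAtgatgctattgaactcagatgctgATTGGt
HLA-DQA1: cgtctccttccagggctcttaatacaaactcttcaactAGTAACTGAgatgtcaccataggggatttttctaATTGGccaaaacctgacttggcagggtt
HLA-DQB1: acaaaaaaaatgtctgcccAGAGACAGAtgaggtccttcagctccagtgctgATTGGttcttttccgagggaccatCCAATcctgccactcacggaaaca
HLA-DMA: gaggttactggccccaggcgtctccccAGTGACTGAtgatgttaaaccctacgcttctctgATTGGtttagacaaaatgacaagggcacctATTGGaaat
HLA-DMB: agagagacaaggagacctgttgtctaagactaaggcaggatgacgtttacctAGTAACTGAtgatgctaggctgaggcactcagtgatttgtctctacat
HLA-DPA1: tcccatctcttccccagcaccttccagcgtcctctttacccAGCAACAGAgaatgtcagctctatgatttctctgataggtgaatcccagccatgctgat
HLA-DPB1: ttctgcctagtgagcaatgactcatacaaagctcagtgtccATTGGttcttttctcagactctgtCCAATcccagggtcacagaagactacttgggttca
CD74: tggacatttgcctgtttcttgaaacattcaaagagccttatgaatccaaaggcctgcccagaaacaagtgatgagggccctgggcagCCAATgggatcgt
On GRCh38.p14 the stretch of HLA-DRB1 is chr6:32589889-32589988 (minus strand), that of HLA-DQA1 chr6:32637266-32637365 (plus), that of HLA-DQB1 chr6:32666698-32666797 (minus), that of HLA-DMA chr6:32953138-32953237 (minus) and that of HLA-DMB chr6:32941069-32941168 (minus). The HLA-DPA1 stretch is chr6:33073690-33073789 (minus), from 1 of the 2 RefSeq starts of the gene, that of HLA-DPB1 is chr6:33075850-33075949 (plus) and that of CD74 is chr5:150412951-150413050 (minus). The window of the other HLA-DPA1 start, which is not shown, held neither X nor Y letters.

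In 4 members the X letters were followed on the same strand by the Y letters at almost the same distance. From the first base of X to the first base of Y it was 33 bases in HLA-DRB1 and HLA-DQB1 and 34 bases in HLA-DMA and HLA-DQA1. These X letters began at base -79 in HLA-DRB1, -102 in HLA-DQA1, -121 in HLA-DQB1 and -113 in HLA-DMA. HLA-DMB and the shown HLA-DPA1 window held the X letters, at -88 and -99, with no Y letters 30 to 40 bases further on. HLA-DPB1 and CD74 held Y letters and no X letters. Only these exact letters were searched, so a missing match does not show that a box is absent. Among all 35116 RefSeq windows of 300 bases, 15.3% held the X letters, 34.6% the Y letters, and 0.157% (55 windows) an X followed by a Y after 30 to 40 bases.

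These windows belonged to 54 genes, of which 4 were members. HLA-DRB5, which shares a row with HLA-DRB1, and HLA-DOA, a chain of the inhibitor of HLA-DM, were also among them, both with spacings of 33 or 34 bases. Apart from the members and their joint rows, 14 genes of this set passed the filter on low values. Of these 14 genes, 4 were higher and 2 lower by 2-fold or more with the Myc shRNA in PBS, against 14.8% higher among all genes. The 4 higher genes included HLA-DOA, itself a class II gene. Since the X letters were chosen after reading class II windows, this set is not independent of the members. The lower pair was NETO1 (log2 ratio -1.90) and RTN4 (-1.13), where the 5th percentile of all genes was -1.81. At least 14% of all genes were lower by 2-fold or more, since CARM1, at -1.10, lay at percentile 14.5. HLA-DOA stood at 21.4 and 14.7 FPKM in control cells given PBS and DMS, and at 110.5 and 61.5 FPKM in knockdown cells given the same. MR1, whose protein presents vitamin metabolites to T cells, stood at 4.29, 3.78, 16.0 and 11.6 FPKM in these libraries. The control libraries were the low pair for both genes. A match of letters is a description and not a binding site.

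**Figure D1:**
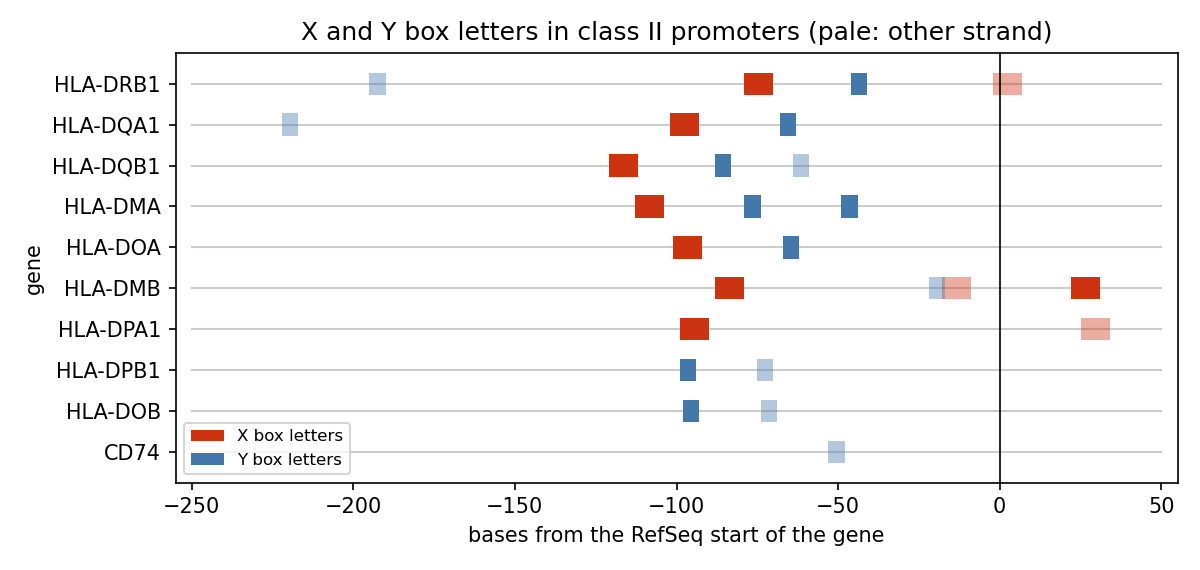
Positions of the X box letters (red) and Y box letters (blue) in RefSeq promoter windows of class II genes, in bases from the start of the gene (x axis, 0 is the start); pale blocks lie on the other strand. In HLA-DRB1, HLA-DQA1, HLA-DQB1, HLA-DMA and HLA-DOA an X block is followed by a Y block 33 or 34 bases further on.

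MYC, the target of the shRNA, was checked first. In control cells it stood at 1854 FPKM with PBS and at 1645 FPKM with DMS. Knockdown cells held 17.2 FPKM with PBS but 629 FPKM with DMS, 36.7-fold more. The knockdown library in DMS therefore stands apart from the other knockdown library in its MYC level. Sequencing depth was not given. The steps between low values put the depth of the other libraries at 1.06 to 1.12 times that of the control library in PBS. The labelled cell type was checked against 6 B cell markers, which were all detected in every library, with CD79A, a chain of the B cell receptor complex, at 706 to 2562 FPKM. Rows without a gene name held 14.3% to 15.7% of all FPKM in control and 22.4% to 25.2% in knockdown.

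Class II RNA was abundant in CA46 cells, and the order of the genes was nearly the same in every library. CD74 was highest and HLA-DRA, the shared alpha chain of all DR molecules, second, followed by HLA-DPA1 and the joint row of HLA-DRB1 and HLA-DRB5, while CIITA was lowest. Only HLA-DMA, HLA-DMB, HLA-DPB1, HLA-DQB1 and the joint row of HLA-DQA1 and HLA-DQA2 changed places with their neighbours. With 1 library a group, no spread between replicates was available to say which neighbours differ. The 8 members together made up 0.501% of the summed FPKM of named genes in the control cells in PBS and 0.317% in DMS, against 1.91% and 1.05% in the knockdown cells.

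CD74 (chromosome 5, 149781200 to 149792499 on hg19) stood at 2730.1 FPKM in the control cells in PBS, 1766 in the control cells in DMS, 9148 in the knockdown cells in PBS and 5029.7 in the knockdown cells in DMS. Among the genes that passed the filter it ranked 65th, 83rd, 12th and 28th in these libraries. HLA-DRA (chromosome 6, 32407619 to 32412826) stood at 911, 526, 3387 and 1847 FPKM; this order of libraries is kept below. Both genes were highest in the knockdown cells in PBS and lowest in the control cells in DMS, and both knockdown libraries lay above both control libraries. CIITA (chromosome 16, 10933490 to 11018840) followed the same order at 31.1, 20.8, 129 and 69.4 FPKM. Its rank rose from 2906th in the control cells in PBS to 642nd in the knockdown cells in PBS. CIITA was the sum of 2 rows with the same span, the second of which held 3.01% to 5.01% of the sum.

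The DP chains share 1 span in the tables (chromosome 6, 33032346 to 33057473). The alpha chain HLA-DPA1 stood at 301, 192, 1232 and 663 FPKM. The beta chain HLA-DPB1 stood at 61.7, 37.1, 309 and 160.1 FPKM. The DQ genes share a span as well (32595937 to 32714664), in which the beta chain HLA-DQB1 stood at 71.2, 48.6, 268 and 141 FPKM. The joint row of the alpha chains HLA-DQA1 and HLA-DQA2 stood at 91.4, 54.6, 453 and 261 FPKM. The joint row of the beta chains HLA-DRB1 and HLA-DRB5 (32485154 to 32557613) stood at 127, 70.6, 508 and 277 FPKM. In each of these chains the 4 libraries fell in the same order as for CD74.

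The exchange factor genes are separate neighbours on chromosome 6. HLA-DMA (32916391 to 32920899) stood at 89.2, 69.6, 324 and 209.9 FPKM, and HLA-DMB (32902406 to 32908847) at 62.0, 35.8, 299 and 161 FPKM. The libraries took the same order again, with the narrowest range in HLA-DMA. All 38 rows of member symbols on alternative haplotypes were listed at 0, so the values of the members came from the primary chromosomes alone.

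**Figure D2:**
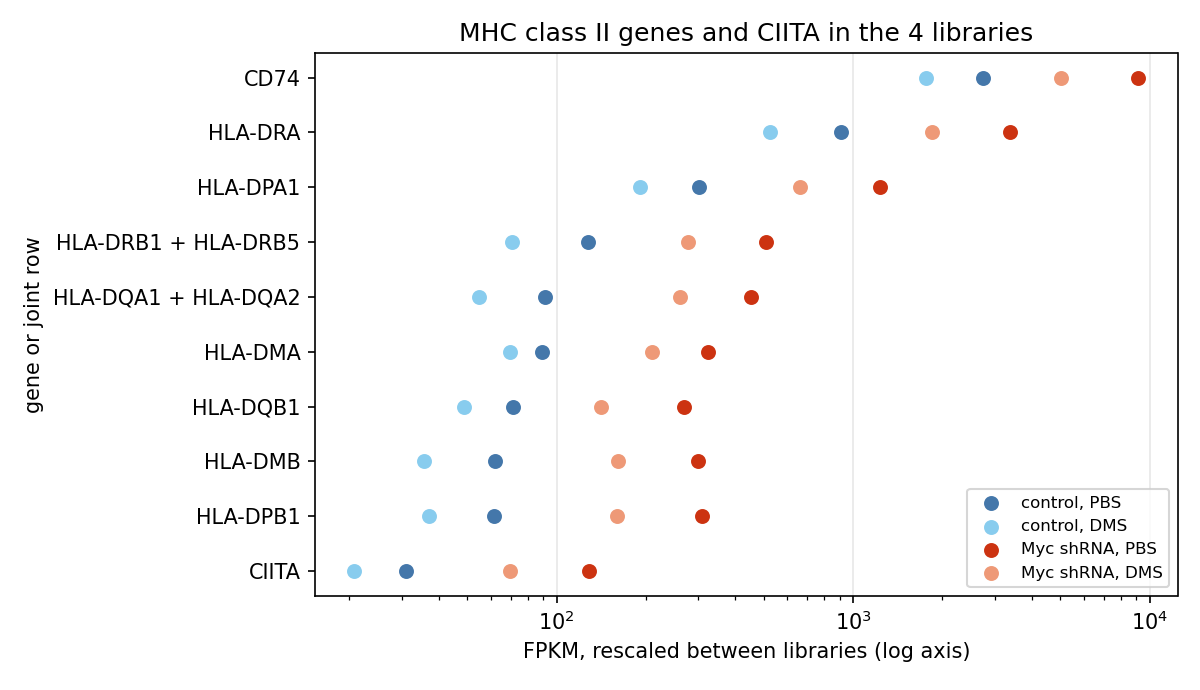
Rescaled FPKM (x axis, log scale) of the 8 members and the 2 joint rows (y axis, by level in the control cells in PBS), 1 point for each library. In every row the control cells in DMS are lowest, then the control cells in PBS, the knockdown cells in DMS and the knockdown cells in PBS; CD74 runs from 1766 to 9148 FPKM and CIITA from 20.8 to 129 FPKM.

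The first comparison asked what the Myc shRNA did without succinate. In PBS all 8 members were higher by 2-fold or more with the Myc shRNA, where 14.8% of all genes were. The fold ran from 3.35 for CD74 to 5.01 for HLA-DPB1, with a median of 3.93. The trans-activator CIITA was 4.15-fold higher, near the middle of the genes it controls. On the log2(FPKM + 1) scale, which understates low genes, the members had a median of 1.96 against 0.01 for all genes, and each lay between the 95.9th and 98.8th percentile. The joint rows were at 1.99 for HLA-DRB1 and HLA-DRB5 and 2.30 for HLA-DQA1 and HLA-DQA2. As deposited, the median of all genes in this comparison was -0.13 and that of the members 1.80. This comparison of 2 libraries has no replicate check and no p-value.

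With DMS in the medium of both, class II FPKM was again higher in the knockdown cells than in the control cells. MYC stood at 629 FPKM in this knockdown library and at 1645 FPKM in its control, 0.382 times. All 8 members were at least 2-fold higher, against 9.9% of all genes. The fold ran from 2.85 for CD74 to 4.49 for HLA-DMB, with 3.34 for CIITA. The log2 ratio of every member was smaller in DMS than in PBS, by 0.08 for HLA-DRA to 0.38 for HLA-DQB1. The difference of the 2 ratios had a median of -0.24 over the members and 0.04 over all genes, and the members lay inside the range of the middle 90% of genes (-0.45 to 0.97). The difference itself could not be tested with 1 library a group.

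**Figure D3:**
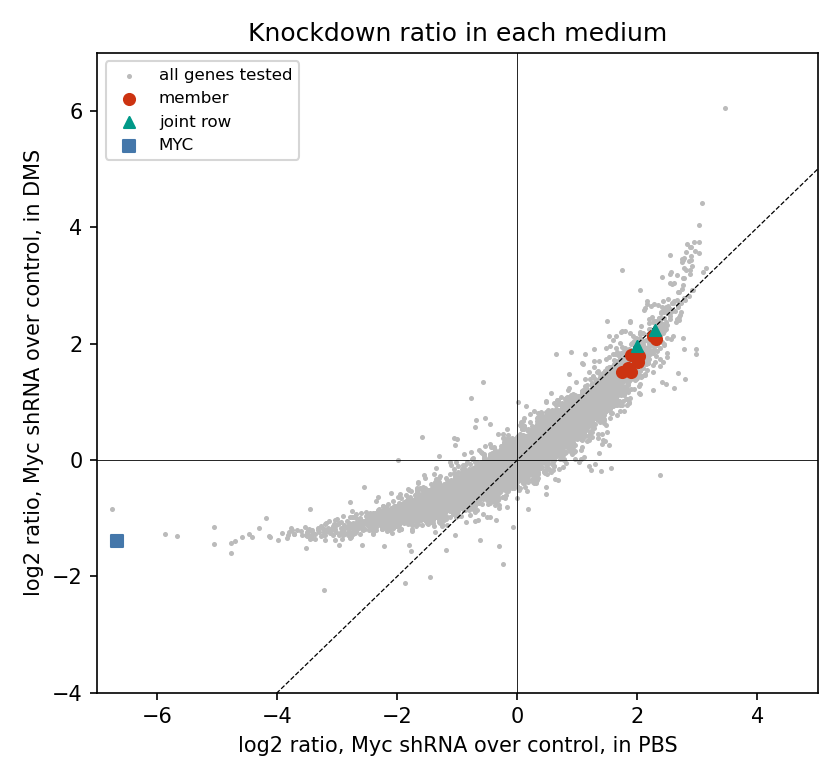
Log2 ratio of FPKM + 1, Myc shRNA over control, in PBS (x axis) and in DMS (y axis) for all 11188 genes (grey), the 8 members (red), the 2 joint rows (green) and MYC (blue); the dashed line marks equal ratios. The members and joint rows lie between 1.74 and 2.31 in PBS and between 1.51 and 2.23 in DMS, just under the line.

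Over both media the knockdown could be tested with limma, with medium as an additive term, 1 residual degree of freedom per gene and a spread pooled over genes. All 8 members rose, where 28.8% of all genes did. CD74 rose by 1.63 (SE 0.13, adjusted p = 0.00028 by limma) and HLA-DMB by 2.195 (SE 0.19, adjusted p = 0.000333 by limma). CIITA rose by 1.85 (SE 0.19, adjusted p = 0.000588 by limma). The largest adjusted p of a member was 0.000974, for HLA-DQB1. Both joint rows rose too, by 1.97 (SE 0.18) and 2.26 (SE 0.18). Without the knockdown library in DMS, and then without the medium term, all 8 members were still called, whereas 0 of 8 were called when either control library was left out in this form (adjusted p of 0.0748 to 0.154 by limma). In these fits 0 of all 11188 genes were called, and the members' median log2 change was 2.18 without the control library in PBS and 1.56 without that in DMS, against 1.85 with 4 libraries. Because these fits have no medium term, the DMS difference enters their knockdown change. The members' median was 2.29 without the knockdown library in DMS. The lists described below were tested without the knockdown library in DMS as well, a choice made after seeing the data. Every list gene called with 4 libraries was then still called in the same direction, and IRF8 and IFNGR2 (up) and CTSD and LGMN (down) were called too. Among list genes called with 4 libraries, the log2 change moved by over 1.5 times for RFXAP (-1.55 instead of -1.02) and TUBB3 (-3.56 instead of -2.31). In that fit 32.5% of all genes rose and 33.2% fell. In the fit to 4 libraries, the residual of a gene was the difference of its knockdown ratio between PBS and DMS, counted as error. The p-values thus measure no spread between replicates, with 1 library a group and no separate cultures named in the labels.

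In control cells, exposure to DMS was compared with PBS. All 8 members had lower values in DMS, where 57.7% of all genes lay below 0. The values were 22.01% lower for HLA-DMA and 42.3% lower for HLA-DRA, with CIITA and the other members between. No member reached a 2-fold difference, which 0.384% of all genes reached downward. The log2 ratio had a median of -0.64 against -0.04 for all genes, and 7 of the 8 members lay below the 5th percentile of all genes, -0.40; HLA-DMA was at -0.35. The 2 joint rows were at -0.84 and -0.73.

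In the knockdown cells the members were also lower in DMS than in PBS, all 8 of them, where 49.4% of all genes lay below 0. The values were 35.2% lower for HLA-DMA and 48.2% lower for HLA-DPB1. Again none was 2-fold lower, against 0.456% of all genes. The median log2 ratio was -0.89, against 0.00 for all genes, and CIITA was at -0.89 as well. In this pair of libraries MYC was 36.7-fold higher in DMS, and in the control pair it was 0.887 times its level in PBS; the part of MYC in either class II difference was not tested.

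Over both viruses the DMS effect on class II genes did not pass the test. The log2 changes ran from -0.49 (HLA-DMA) to -0.83 (HLA-DRA), with adjusted p of 0.157 to 0.332 by limma. All 8 members had an unadjusted p under 0.05 by limma, as did 13.7% of all genes (1536). After adjustment 0 of 11188 genes (0%) were called in either direction. With a pseudocount of 5 FPKM instead of 1, 5 of the 8 members were called lower, as were 1.54% of all genes.

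**Figure D4:**
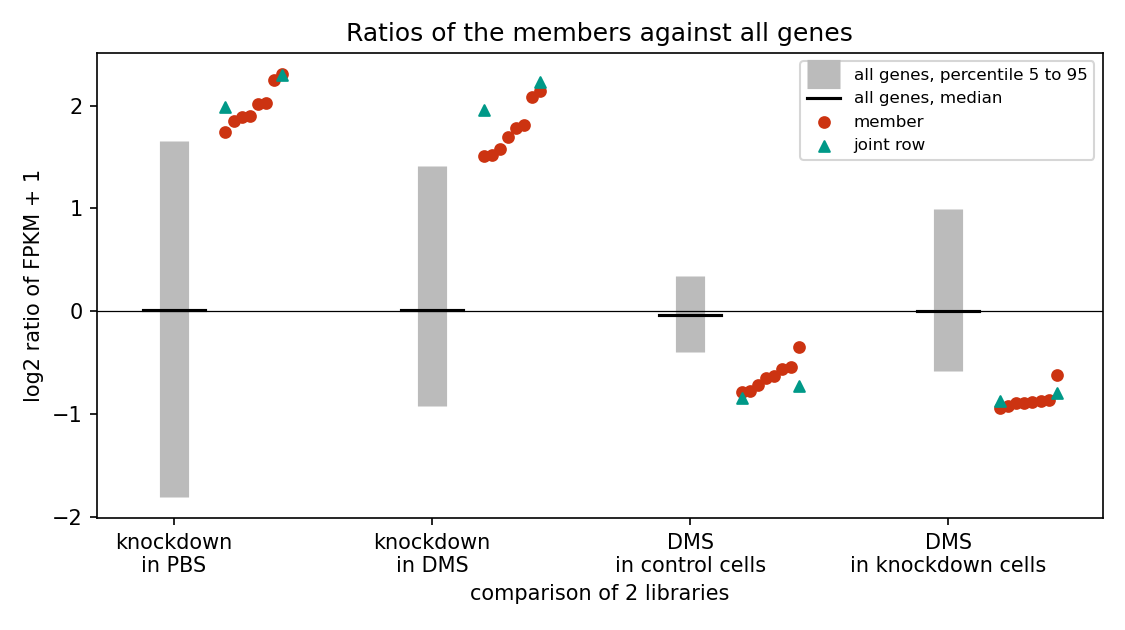
Log2 ratio of FPKM + 1 (y axis) of the 8 members (red circles) and 2 joint rows (green triangles) in each comparison of 2 libraries (x axis); grey bars span percentiles 5 to 95 of all 11188 genes and black lines their median. The members lie above the grey bar in both knockdown comparisons and, except HLA-DMA in control cells, below it in both DMS comparisons.

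The ratio of FPKM between the chains of 1 molecule moved more in some pairs than in others. HLA-DRA stood at 7.15 and 7.45 times the joint row of HLA-DRB1 and HLA-DRB5 in control cells with PBS and DMS, and at 6.67 times in both knockdown libraries. HLA-DPA1 stood at 4.89 and 5.16 times HLA-DPB1 in the control cells, and at 3.99 and 4.14 times in the knockdown cells. HLA-DMA stood at 1.44 and 1.94 times HLA-DMB in the control cells and at 1.08 and 1.30 times in the knockdown cells. The joint DQ alpha row over HLA-DQB1 went the other way, from 1.28 and 1.12 in control to 1.69 and 1.85 in knockdown. CD74 stood at 87.7 and 85.0 times CIITA in the control cells and at 70.9 and 72.5 times in the knockdown cells. HLA-DRA over CIITA stayed within 25.3 and 29.3 in all 4 libraries. These ratios are descriptions of single libraries, and polymorphic chains may align unequally to 1 reference.

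Class II genes outside the 10 members showed the same direction. Of 9 further symbols, 6 features passed the filter, among them the 2 joint rows already described. All 6 rose with the knockdown by limma, against 28.8% of all genes. HLA-DOA rose by 2.16 (SE 0.19, adjusted p = 0.00035 by limma). HLA-DOB, the partner of HLA-DOA, shares a row with the peptide transporter TAP2, at 68.9, 54.0, 227 and 153 FPKM. The pseudogene HLA-DRB6, whose sequence resembles the DRB genes, stood at 10.4, 1.28, 37.0 and 21.1 FPKM, so its value in the control cells in DMS was far below the other 3 libraries. HLA-DQB2 stood at 1.18, 0.92, 6.86 and 2.85 FPKM. HLA-DPB2 was below the filter and HLA-DRB4 was listed at 0. BTN2A2, a butyrophilin gene reported as a target of RFX and CIITA, stood at 3.72, 2.52, 20.4 and 12.1 FPKM and rose by 2.04 (SE 0.15, adjusted p = 0.000244 by limma). It was 1 of 2 listed features of this kind. Of these 2, 2 rose by limma, against 28.8% of all genes, but only BTN2A2 was higher by 2-fold or more in either medium.

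The proteins that sit on the X and Y boxes did not share 1 direction. Of 8 genes for this complex, 2 rose and 2 fell with the knockdown by limma, where 28.8% and 27.7% of all genes did. RFX5, the DNA-binding subunit of RFX, rose from 45.3 and 38.6 FPKM in control to 93.3 and 66.2 FPKM in knockdown (log2 change 0.90, SE 0.19, adjusted p = 0.00677 by limma). CREB1, which can bind the X2 box beside the X box, rose by 0.74 (SE 0.15). RFXAP, another RFX subunit, fell by 1.02 (SE 0.28, adjusted p = 0.0174 by limma), at 13.1, 11.3, 3.49 and 8.36 FPKM. NFYB, a histone-fold subunit of NF-Y, fell by 0.62 (SE 0.18). RFXANK, the third RFX subunit, had values of 66.1 to 71.5 FPKM in the 4 libraries and did not pass the test, nor did NFYA, NFYC and ATF1.

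Of 8 listed factors known to act on the CIITA promoters 7 passed the filter, 4 of these rose by limma, against 28.8% of all genes, and none fell. Only 2 of the 7 were higher by 2-fold or more in PBS. SPI1, the PU.1 factor of B and myeloid cells, stood at 126, 93.5, 294 and 211 FPKM and rose by 1.19 (SE 0.18, adjusted p = 0.00284 by limma). PAX5, the B lineage factor, stood at 55.02, 43.0, 126 and 88.8 FPKM and rose by 1.10 (SE 0.19). IRF4 and ZEB1 rose by 0.55 and 0.60. IRF8 (0.49, adjusted p = 0.0603 by limma) and TCF3 (-0.20) did not pass. PRDM1, the plasma cell factor that silences CIITA, was low in all 4 libraries (1.28 to 1.54 FPKM), and BCL6 was below the filter at 0.16 to 0.43 FPKM.

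The route from the interferon gamma receptor to CIITA rose almost throughout, with 8 of 9 genes called by limma and none falling. Among all genes 28.8% rose and 27.7% fell. SOCS1, a feedback inhibitor of the route, stood at 17.5, 9.49, 99.1 and 52.0 FPKM, and the kinase gene JAK2 at 4.51, 2.80, 19.3 and 13.0 FPKM. IRF1, which binds a CIITA promoter, rose by 1.15 (SE 0.18). The receptor chain IFNGR1 rose by 0.96, whereas the other chain IFNGR2 did not pass (0.35, adjusted p = 0.116 by limma). Over the 9 genes of the route the median log2 knockdown ratio was 1.42 in PBS and 1.17 in DMS. That of CIITA was 2.02 in PBS and 1.69 in DMS, and that of JAK2 was 1.88 in each. The part of the route in the CIITA difference was not tested.

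Among chromatin factors known to work with or against CIITA, 5 of 11 rose and 3 fell by limma, against 28.8% and 27.7% of all genes. The acetyltransferase genes KAT2B, CREBBP and EP300 rose by 1.37, 0.76 and 0.54. The row that joins the H3K4 methyltransferase gene KMT2D with PRKAG1 rose by 0.81, and FBXO11, of a ubiquitin ligase known to target CIITA, by 0.56. The arginine methyltransferase gene CARM1 fell by 0.87, the deacetylase gene HDAC2 by 0.84 and the H3K27 methyltransferase gene EZH2 by 0.61. HDAC1, HDAC3 and SIN3A had changes of -0.03, -0.11 and -0.10 and did not pass.

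Of 10 symbols for antigen processing 8 passed the filter. Of these, 6 rose and none fell by limma, against 28.8% and 27.7% of all genes. CTSS, the protease that trims the invariant chain in B cells, stood at 23.3, 20.2, 64.1 and 43.3 FPKM. SPPL2A, which cleaves the last membrane stub of CD74, rose by 1.50 (SE 0.15, adjusted p = 0.000545 by limma). CTSH and CTSZ rose by 1.90 and 1.73, CTSB by 1.15 and the thiol reductase IFI30 by 0.75. LGMN, an asparaginyl protease, had its highest value in the control cells in DMS (42.1, 58.1, 29.8 and 43.4 FPKM) and did not pass, nor did CTSD. CTSL was listed at 0. CD83, which protects surface class II from ubiquitination, rose by 1.90 (SE 0.16). All 5 genes for costimulation and adhesion rose, against 28.8% of all genes. Among them were CD40 (30.3, 17.9, 146 and 76.4 FPKM) and ICAM1 (16.0, 11.1, 62.1 and 32.0 FPKM).

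**Figure D5:**
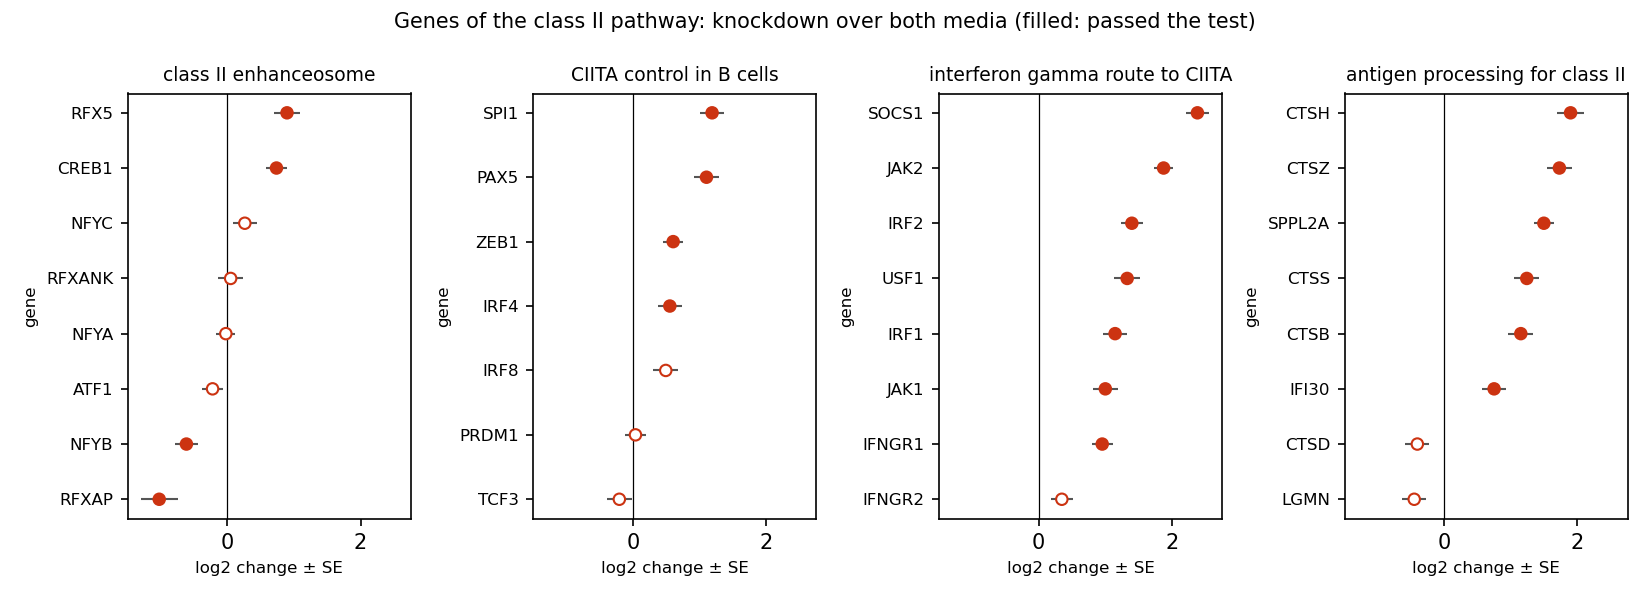
Log2 change with the Myc shRNA over both media from limma (x axis, ± SE) for genes of 4 pathway lists that passed the filter (y axis; 1 gene of the interferon gamma route is not shown); filled points passed the adjusted threshold of 0.05. In the enhanceosome list RFX5 (0.90) and CREB1 (0.74) lie right of 0 and RFXAP (-1.02) and NFYB (-0.62) left of it, while the genes shown of the interferon gamma route all lie right of 0 and are filled except IFNGR2.

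MHC class I genes rose in the same test, 9 of 9 features, the row of HLA-DOB and TAP2 included, against 28.8% of all genes. HLA-E (log2 change 2.42) rose most and HLA-C (0.95) least, and NLRC5, the class I relative of CIITA, stood at 21.6, 17.9, 72.3 and 47.5 FPKM and rose by 1.53 (SE 0.19).

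The 10 genes outside the members with the 4-library profile closest to the members' median were named by Euclidean distance of centred log2(FPKM + 1) values among 8322 genes of 5 FPKM or more on average. They were MYBPC2 (distance 0.05), PLEK, PDLIM2, HCST, MOB3A, ZFP36L1, PPP1R18, GPR137B, CD83 and the joint row of GPSM3 and NOTCH4 (0.09). For PLEK, the cytoskeletal protein kinase C substrate pleckstrin, the levels were 106, 68.2, 406 and 235 FPKM. For HCST, the signalling adaptor DAP10, they were 82.8, 52.7, 333 and 170.3 FPKM. CIITA lay at a distance of 0.04 and HLA-DMB, the farthest of the 8 members, at 0.34. The members set the median themselves, so their distances cannot be compared with those of outside genes. The joint rows lay at 0.195 (HLA-DRB1 and HLA-DRB5) and 0.405 (HLA-DQA1 and HLA-DQA2). With 4 libraries many genes share a profile by this measure.

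Markers of other cells that carry class II were measured beside the members. In RNA from bulk cells, more cells of a type and more RNA per cell cannot be told apart. Of 12 myeloid and dendritic markers 5 passed the filter: CD68, LYZ, ITGAM, ITGAX and CD1C. All 5 rose by limma, against 28.8% of all genes. ITGAX (0.693 and 0.378 FPKM in control, 5.53 and 4.63 FPKM in knockdown) passed only through the knockdown libraries, so its rise is no separate evidence. ITGAM stood at 8.07, 3.25, 67.4 and 42.0 FPKM. The other 7 markers did not exceed 0.22 FPKM in any library, with CD14, CSF1R, FCGR1A and FLT3 near 0 and CLEC9A, XCR1 and CD163 listed at 0. The summed level of the 12 markers was 12.8 to 30.04 FPKM in the control cells and 127 to 213 FPKM in the knockdown cells, against 2696 to 4258 and 8281 to 15097 FPKM for the 8 members. B cell markers rose in 6 of 6 features, against 28.8% of all genes, with MS4A1 (CD20) at 245, 156, 947 and 649.6 FPKM. T cell markers summed to 8.45 to 10.7 FPKM in all 4 libraries, most of it CD3E, which did not pass the test. CD2 rose by 0.97 (SE 0.16, adjusted p = 0.00359 by limma) at 0.536, 0.186, 1.79 and 1.51 FPKM. It passed the filter only through the knockdown libraries, where it is high, so its call is no separate evidence of a rise. CD4, below the filter, was at 0.194, 0.189, 1.4 and 0.991 FPKM. The packaging and epithelial markers summed to 278 and 335 FPKM in control and 25.3 and 146 FPKM in knockdown. Nearly all of this sum was the tubulin gene TUBB3 (273, 331, 24.5 and 143 FPKM), so it is no measure of such cells. EPCAM stood at 4.76, 4.68, 0.812 and 2.83 FPKM, and KRT8 and KRT18 were listed at 0. The part of any of these cell types in the class II result was not tested.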

How the data were processed

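The authors deposited 1 table of FPKM per RNA library with 31016 rows; the unit was read from the fractional values, although the titles speak of read counts. Per the submitters' processing notes the tools included TopHat2 2.1.0 and Cuffdiff 2.2.1 and the human build was hg19; the sources used here do not give the annotation or the strand setting. Starts in the tables count from 0 and were raised by 1. Unnamed rows (3919), dates in place of symbols (30) and small RNAs were left out, and joint rows (616) stayed 1 feature each. Each library was scaled to the mean library by its log2 ratios, averaged after trimming (30% of ratios, 5% of levels at each end), over genes of at least 1 FPKM in every library; factors were 1.06, 1.04, 0.948 and 0.956. Log2 ratios used a pseudocount of 1 FPKM, and 2-fold counted as higher or lower. Limma 3.58.1 (R 4.3.3, intensity trend, Benjamini-Hochberg, threshold 0.05) was fitted to all 11188 genes and tested on simulated data. Depth relative to the first library came from the commonest ratio of values under 0.5 FPKM. No counts were available, so no counting interval is given. Named genes were the members, all genes of the pathway and marker lists, MYC, the genes holding both boxes and the 10 nearest profiles. A longer form of the X letters was tried first and replaced by the shorter one shown. The members and lists were chosen with earlier results of these data known. Alternatives covered scaling, pseudocount, filter, rows, trend, terms and left-out libraries. A pair of genes that count in the lists is not reported here by name.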

Additional observations from a re-analysis of the deposited data

Results flagged for a closer look

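For 3 named genes DMS moved the value one way in control cells and the other way in knockdown cells, with at least a 2-fold difference in one of them; with 1 library a group the difference was not tested. MYC had a log2 ratio of 5.12 for DMS against PBS in knockdown cells and -0.17 in control cells. RFXAP, the RFX subunit, was at 1.06 and -0.19, and the epithelial marker EPCAM at 1.08 and -0.02. No class II member was among them, since all 8 were lower in DMS with both viruses.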

How the results depend on the processing

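All 8 members stayed at least 2-fold higher in both knockdown comparisons, and 0 of 8 reached 2-fold with DMS, as deposited, with median-of-ratios scaling, with pseudocounts of 0.1 or 5 FPKM and on primary chromosomes alone; with the joint rows added the counts were 10 of 10 and 0 of 10. As deposited, the median log2 ratio of the members was 1.80 in PBS and 1.62 in DMS. By limma the knockdown called 8 of 8 members under each change of scaling, pseudocount, filter, rows, trend or medium term, and between 0 and 8 when 1 library was left out with no second term. It called 0 without the control library in PBS and 0 without that in DMS, and 8 without either knockdown library. That form leaves 1 library in an arm, whose spread is taken from the other arm and the pool of genes. In it the medium enters the knockdown term. The DMS term called 0 members under every alternative except a pseudocount of 5 FPKM, which called 5; the cause was not tested. Leaving out a library gave 0 for DMS each time; the virus then enters the DMS term, and the members' median change, -0.76 with 4 libraries, was -1.76 without the control library in PBS, 0.12 without that in DMS, 0.26 without the knockdown library in PBS and -1.62 without that in DMS. No paired analysis was possible because each group has 1 library and the labels carry no replicate numbers; the medium term does match libraries by medium, and without it the members' adjusted p by limma was 0.0235 to 0.0306. Joint HLA rows, unknown absolute depth and single libraries limit every value.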
